A study of Sus scrofa with 12 samples.

Results

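Interferon-stimulated genes are the genes that cells switch on when an interferon reaches them, and 9 of them were read in pig ovaries, namely ISG15, MX1, MX2, IFIT1, IFIT2, IFIT3, OAS1, OAS2 and IRF7. They were chosen by symbol, and all 9 were found among the 29884 genes of the expression table. The ovaries came from 3 sows with small litters (SLS, 8.48 ± 0.53 piglets per litter) and 3 sows with large litters (LLS, 16.19 ± 0.43 piglets per litter). The left ovary of each sow was taken at slaughter, 4 days after delivery number 4, and all sows came from 1 commercial farm that was free of PRRSV and porcine circovirus. The SLS ovaries are named ZD2, ZD3 and ZD12 and the LLS ovaries ZD5, ZD7 and ZD8. Each ovary gave 1 library of RNA depleted of ribosomal RNA, whose gene levels are in FPKM (reads scaled to transcript length and library depth), and 1 library of small RNA.

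Type I interferons bind the receptor pair IFNAR1 and IFNAR2, the kinases JAK1 and TYK2 then act on STAT2 and its partners, and these join IRF9 in a complex that binds the interferon-stimulated response element (ISRE) in the promoters of target genes. The products of these genes mark proteins, trap viral particles, bind foreign RNA or feed the response back on itself. In ruminants the corpus luteum and the uterus are known to raise such genes when the conceptus secretes interferon, whereas the sows here had already farrowed.

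The promoters are shown first because the ISRE is the sequence by which the 9 genes are known to be addressed together. The core GAAANNGAAA was searched on both strands from 250 bases before to 50 bases after the annotated start (RefSeq annotation of Sscrofa11.1, all 9 genes matched). It was found in 5 of the 9 promoters, those of ISG15, IFIT1, IFIT2, IFIT3 and OAS2, and in 699 of 19534 promoters (3.58%). The 19534, called all promoters below, are those of protein-coding genes placed on chromosomes. The promoters of MX1 and MX2 held the core with a spacer of 1 base, GAAANGAAA, a motif added after their sequences were seen, which 650 of all promoters held (3.33%). Capitals mark these cores, read on the strand of the gene, and TTTC marks a core on the other strand:
ISG15, chr6:63363057-63363112, plus strand: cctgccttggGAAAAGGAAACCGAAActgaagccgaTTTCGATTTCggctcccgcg
IFIT3, chr14:101214684-101214713, plus strand: gttaaagcagTTTCACTTTCcagttcctct
IFIT1, chr14:101237384-101237413, plus strand: cctactttaaTTTCACTTTCtactttcagt
IFIT2, chr14:101193443-101193470, plus strand: cactttccagTTTCAATTTCTCTTTCct
OAS2, chr14:38847696-38847725, minus strand: gccctgtgagTTTCCTTTTCccctgtgatg
MX1, chr13:204842951-204842979, plus strand: cgcctctaggTTTCGTTTCtaacgcgcag
MX1, chr13:204842997-204843025, plus strand: ttccggggagTTTCGTTTCcccgcggctg
MX2, chr13:204798514-204798567, plus strand: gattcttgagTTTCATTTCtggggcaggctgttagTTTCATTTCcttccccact

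ISG15 held 3 cores, which start 134, 128 and 108 bases before its annotated start, and the first 2 overlap. IFIT3 held 2 cores, of which the one shown starts 36 bases before the annotated start and the other 67 bases before it. The core of OAS2 starts 18 bases and that of IFIT1 9 bases before the annotated start. Both cores of IFIT2 overlap and lie after the annotated start, in the first exon. Neither spacing was found in the windows of OAS1 and IRF7. The core of the gamma-activated site, TTCNNNGAA, which reads the same on both strands, was in 0 of the 9 windows and in 7.11% of all promoters. These matches describe letters in a window and are not measured binding sites.

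The 9 genes sit at 5 places in the genome. ISG15 lies on the plus strand of chromosome 6, at chr6:63363201-63364211, and IRF7 on the minus strand of chromosome 2, at chr2:372235-375572. MX2 (chr13:204798633-204821612) and MX1 (chr13:204843049-204868927) are neighbours on the plus strand, 21.4 kb apart, and the model of MX2 is annotated as partial. IFIT2 (chr14:101193421-101204292), IFIT3 (chr14:101214730-101225169) and IFIT1 (chr14:101237403-101249486) follow each other on the plus strand within the span of LIPA, a lysosomal lipase gene on the minus strand, with 0 shared exon bases. OAS2 (chr14:38827667-38847697) and OAS1 (chr14:38851083-38867427) are 3.4 kb apart on the minus strand of the same chromosome. The annotated OAS1 model has 14 exons, of which 6 gaps are under 5 nt, and it shares 147 exon bases with RPH3A, which was at 0 to 0.238 FPKM. ISG15 shares 69 exon bases with LOC110261384 (0.0937 to 1.10 FPKM). The sources used here do not state whether reads were counted by strand, so reads on shared bases cannot be told apart.

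One library stands apart. The depth was 51703531 to 60903268 reads in 5 libraries and 32272803 in ZD8, and the summed level of 7 luteal genes such as STAR was 124 FPKM in ZD8 and 9167 to 12191 FPKM in the others. In ZD8 the theca gene INSL3 was at 298 FPKM (2.28 to 45.1 in the others) and the oocyte gene GDF9 at 40.6 FPKM (5.41 to 11.3). ZD8 was also the highest ovary for 44.6% of the 12260 genes that passed the filter on low values. The group differences of the 9 genes are therefore given below with and without ZD8. In whole tissue, fewer cells of a type and less RNA per cell cannot be told apart.

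All 9 genes were expressed above the filter, which asked for at least 1 FPKM in at least 3 ovaries. On the FPKM scale, which corrects for length, the mean over the 6 ovaries ran from 1.41 for IFIT2 to 16.1 for MX1, and the median gene that passed the filter had a mean of 9.46. MX1 and OAS2 together made up 53.4% to 62.9% of the summed level of the 9 genes in each ovary. The sum was 52.8, 40.3 and 86.8 FPKM in ZD2, ZD3 and ZD12, and 39.7, 34.7 and 43.0 FPKM in ZD5, ZD7 and ZD8. It averaged 60.0 ± 24.1 FPKM in SLS and 39.1 ± 4.18 FPKM in LLS (SD, n = 3 each), and the groups overlapped.

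**Figure D1:**
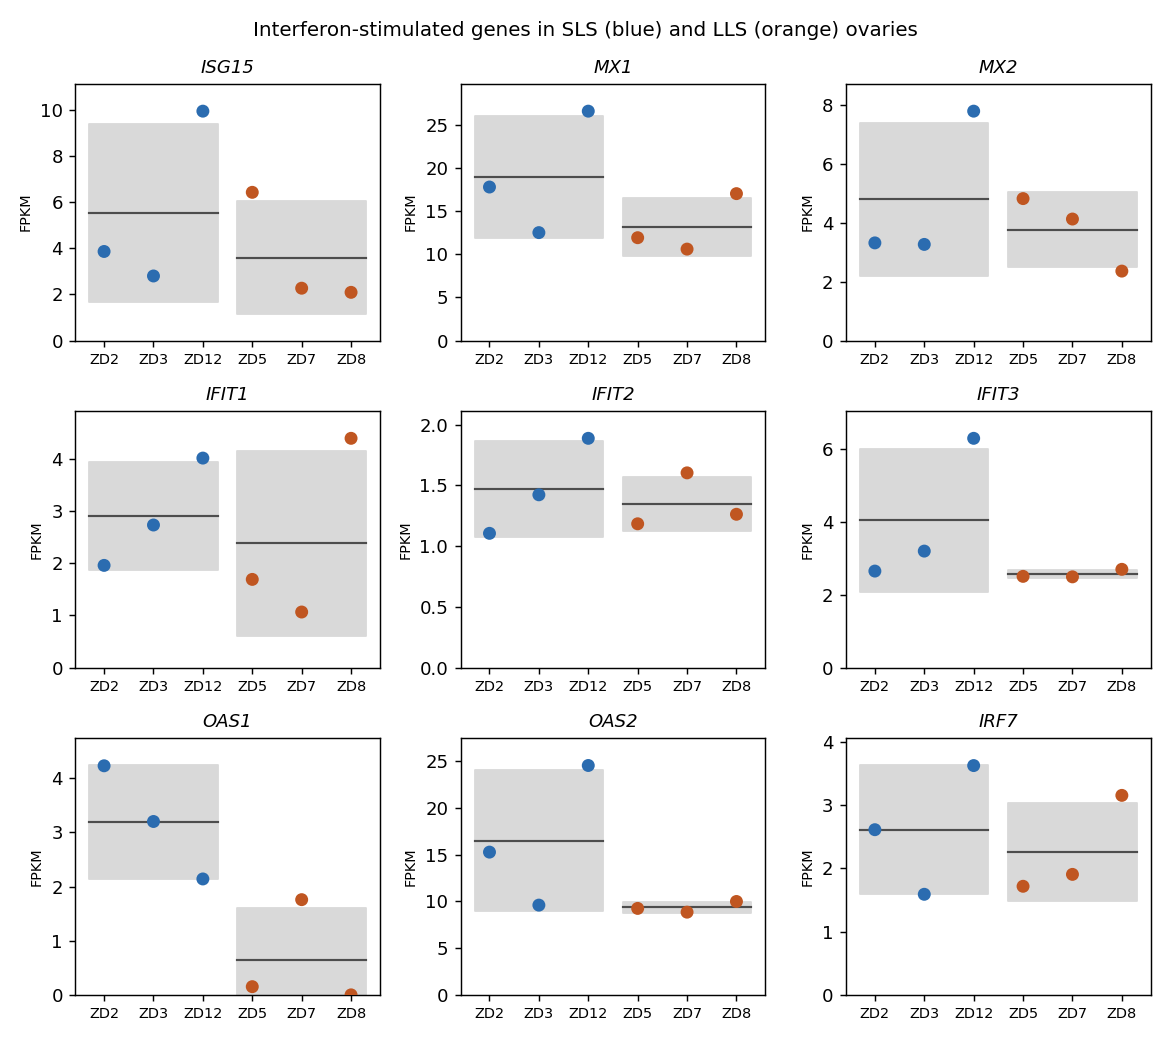
FPKM (vertical axis, from 0) of each gene in each ovary (horizontal axis), with the group mean (line) and 1 SD (grey band), n = 3 per group. ZD12 is the highest ovary for 7 of the 9 genes, and OAS1 is the gene whose SLS values (2.14 to 4.23 FPKM) all lie above its LLS values (0 to 1.76 FPKM).

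OAS1 and OAS2 encode synthetases that sense double-stranded RNA and make oligoadenylate chains, which in turn switch on RNase L. OAS1 was at 4.23, 3.20 and 2.14 FPKM in ZD2, ZD3 and ZD12, and at 0.151, 1.76 and 0 FPKM in ZD5, ZD7 and ZD8. Every SLS ovary was above every LLS ovary, and in 2 of the LLS ovaries the gene was nearly or wholly without reads. The values came from 414, 266 and 182 reads in SLS and 14, 172 and 0 reads in LLS, and a count of 0 in ZD8 allows up to 0.0578 FPKM (3 reads). The mean was 3.19 ± 1.04 FPKM in SLS and 0.636 ± 0.974 FPKM in LLS, a ratio of 5.01. The LLS mean, and with it the ratio, rested mainly on the 172 reads of ZD7. The difference of LLS from SLS on the log2(FPKM + 1) scale was -1.48 (SE 0.43, 95% interval -2.47 to -0.49), with an unadjusted p of 0.00867 and a Benjamini-Hochberg adjusted p of 0.999 by limma. An exact two-sided permutation test gave p = 0.1, the smallest that 3 ovaries against 3 allow.

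OAS1 kept its direction without ZD8 (-1.20, unadjusted p = 0.0101, adjusted p = 0.450 by limma) and without ZD12 (-1.67, unadjusted p = 0.0106, adjusted p = 0.99999). Without ZD7 the difference was -1.93 (unadjusted p = 0.000576, adjusted p = 0.978 by limma). Its size depended on the pseudocount, with -3.14 at 0.1 and -4.44 at 0.01. On the whole reads recovered from the FPKM values, the fold change of OAS1 was -2.24 by edgeR (unadjusted p = 0.124) and -2.26 by DESeq2 (unadjusted p = 0.0583). It was the 1 gene of the 9 with an unadjusted p under 0.05 by limma, a share to be read beside 1.76% of all genes tested. With array weights 4 of the 9 were under 0.05 (OAS2, MX1, OAS1 and IFIT1), as were 1252 of all 12260 genes, and it was 2 of the 9 without ZD3 (189 of 12099 genes) and 2 of the 9 without ZD8 (709 of 11985 genes). By DESeq2 the 1 gene under 0.05 was OAS2 (unadjusted p = 0.0448), beside 304 of 12245 genes, and by edgeR it was 0 of the 9, beside 220 of 12245. OAS1 was also the 1 gene of the 9 with all LLS values under all SLS values, beside 3.17% of all genes tested, and 0 of the 9 had all LLS values above, beside 1.95%.

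OAS2, the larger synthetase next to OAS1, was at 15.3, 9.61 and 24.6 FPKM in ZD2, ZD3 and ZD12, and at 9.25, 8.85 and 9.997 FPKM in ZD5, ZD7 and ZD8. The 3 LLS ovaries lay close together, with an SD of 0.580 FPKM against 7.55 FPKM in SLS, and ZD3 lay among them. The log2 fold change was -0.66 (SE 0.35, 95% interval -1.46 to 0.13, unadjusted p = 0.0908, adjusted p = 0.999 by limma). By limma it was -0.34 without ZD12 (unadjusted p = 0.359) and -0.98 without ZD3 (unadjusted p = 0.0171, adjusted p = 0.9998). Although they are neighbours, the genes did not keep a fixed proportion. The level of OAS1 was 27.7%, 33.3% and 8.72% of that of OAS2 in ZD2, ZD3 and ZD12, and 1.63%, 19.9% and 0% in ZD5, ZD7 and ZD8. ZD12, with the highest OAS2, had the lowest OAS1 among the SLS ovaries.

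MX1 and MX2 encode dynamin-like GTPases that block the entry or transport of viral particles. MX1 was at 17.8, 12.5 and 26.6 FPKM in ZD2, ZD3 and ZD12, and at 11.9, 10.6 and 17.0 FPKM in ZD5, ZD7 and ZD8. The groups overlapped through ZD3 and ZD8. MX2 was at 3.31, 3.26 and 7.78 FPKM in the SLS ovaries and at 4.82, 4.12 and 2.36 FPKM in the LLS ovaries in the same order. Apart from ZD12, the highest MX2 values were those of the LLS ovaries ZD5 and ZD7. The log2 fold change was -0.46 for MX1 (95% interval -1.23 to 0.32) and -0.23 for MX2 (-1.11 to 0.65). With 1 ovary left out, that of MX1 ran from -0.71 without ZD3 to -0.19 without ZD12. That of MX2 ran from -0.41 without ZD3 to 0.11 without ZD12.

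ISG15 encodes a ubiquitin-like protein that is attached to other proteins. It was at 3.86, 2.79 and 9.93 FPKM in ZD2, ZD3 and ZD12, and at 6.42, 2.27 and 2.09 FPKM in ZD5, ZD7 and ZD8, and rested on 41 to 320 reads because its transcript is short. ZD12 and ZD5 were high, 1 in each group, and the other 4 ovaries lay between 2.09 and 3.86 FPKM. The log2 fold change was -0.48 with a 95% interval of -1.61 to 0.66, the widest of the 9. With 1 ovary left out it ran from -0.88 without ZD5 to -0.03 without ZD12. USP18, the protease that removes ISG15 from proteins, was highest in ZD5 (9.59 FPKM) and next in ZD12 (6.84 FPKM), with 4.23 to 6.07 FPKM in the others. USP18 was named after its values were seen.

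The IFIT proteins bind RNA ends and hold back translation. IFIT3 was at 2.66, 3.21 and 6.31 FPKM in ZD2, ZD3 and ZD12, and at 2.51, 2.50 and 2.70 FPKM in ZD5, ZD7 and ZD8. Its LLS values spanned a narrow range, and ZD8 was just above the lowest SLS ovary. IFIT1 was at 1.96, 2.73 and 4.01 FPKM in the SLS ovaries and at 1.69, 1.07 and 4.39 FPKM in the LLS ovaries. It was highest in ZD8, with ZD12 next, and its log2 fold change of -0.30 depended on single ovaries. It was -0.69 without ZD8 (unadjusted p = 0.0386, adjusted p = 0.779 by limma), -0.10 without ZD12 and -0.0009 without ZD7 (unadjusted p = 0.998). IFIT2 was the lowest and the most even of the genes, at 1.11, 1.42 and 1.89 FPKM in SLS and 1.18, 1.60 and 1.26 FPKM in LLS, and its log2 fold change was -0.07 (95% interval -0.69 to 0.56). LIPA, whose span holds the cluster, was at 27.5 FPKM in ZD8 and 159 to 210 FPKM in the others. A further gene annotated as IFIT5 (LOC100151816) was at 34.8 FPKM in ZD8 and 14.3 to 21.8 FPKM elsewhere.

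IRF7 encodes the transcription factor that amplifies the production of type I interferons. It was at 2.61, 1.59 and 3.62 FPKM in ZD2, ZD3 and ZD12, and at 1.71, 1.90 and 3.15 FPKM in ZD5, ZD7 and ZD8. The high ovaries were ZD12 and ZD8, and the groups overlapped, with a log2 fold change of -0.13 (95% interval -0.89 to 0.62).

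Between the groups, no member passed the test. Of the 9 genes 0 were called at an adjusted p under 0.05 with a log2 fold change over 1 in size by limma, as were 0 of the 12260 genes tested (0%), of which 216 had an unadjusted p under 0.05. On the recovered reads, edgeR called 0 and DESeq2 called 20 of 12245 genes, none of them a member. The fitted difference was below 0 for 9 of the 9 genes, beside 47.4% of all genes tested, with a median of -0.43 beside 0.02 for all genes. For 8 of the 9 the 95% interval included 0, and the groups overlapped. Without ZD8, the log2 fold change was -1.20 for OAS1, -0.71 for OAS2, -0.69 for IFIT1, -0.64 for MX1 and -0.46 for IFIT3. It was -0.32 for IRF7, -0.25 for ISG15, -0.04 for IFIT2 and 0.0035 for MX2. Thus 8 of the 9 were below 0 without ZD8 with a median of -0.46, and without ZD12, 6 of the 9 were below 0 with a median of -0.10. The median of all genes tested was -0.097 without ZD8 and 0.073 without ZD12. The 9 genes share ovaries and one inducing pathway, so these counts are not 9 separate observations.

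**Figure D2:**
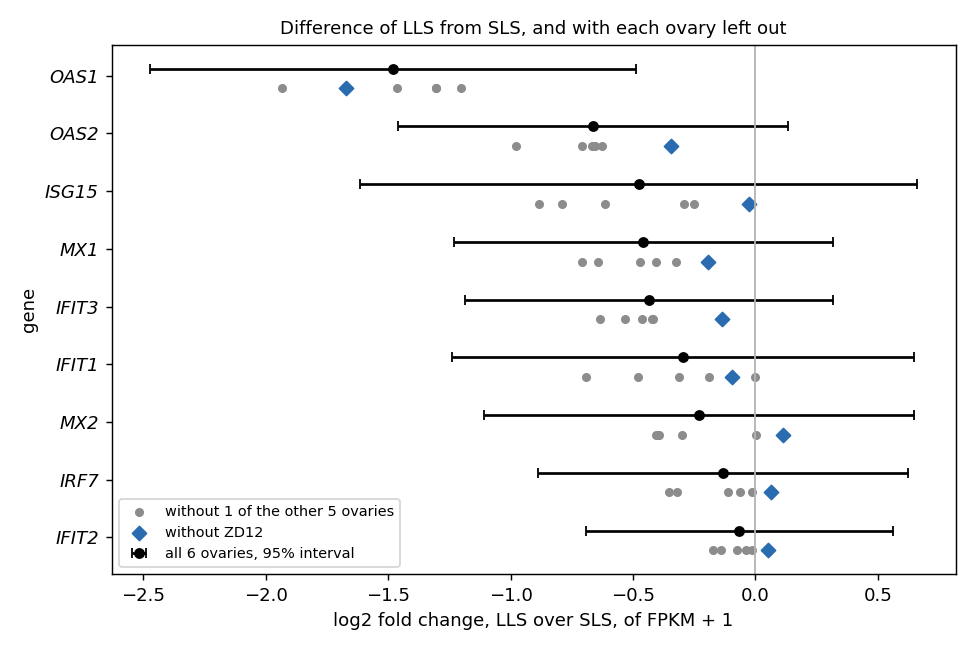
Log2 fold change of LLS over SLS, on the FPKM + 1 scale (horizontal axis), for each gene (vertical axis). Black points are fits of all 6 ovaries with 95% intervals, grey points leave out 1 of the other ovaries and blue diamonds leave out ZD12. OAS1 lies at -1.48, and without ZD12 the differences of MX2, IFIT2 and IRF7 lie above 0.

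ZD12, an SLS ovary, was the highest of the 6 for 7 of the 9 genes, beside 14.3% of all genes tested. The exceptions were OAS1, highest in ZD2, and IFIT1, highest in ZD8. In ZD12 the level was 2.85 times the mean of the other 5 ovaries for ISG15, 2.32 times for IFIT3 and for OAS2, 2.18 times for MX2 and 1.90 times for MX1. It was 1.69 times for IFIT1, 1.65 times for IRF7, 1.43 times for IFIT2 and 1.15 times for OAS1. The SD of log2(FPKM + 1) was larger in SLS than in LLS for 7 of the 9 genes, beside 31.9% of all genes tested, and its median was 0.52 in SLS and 0.33 in LLS.

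Cell type markers were read beside this. In ZD12 the summed level of 7 granulosa genes was 882 FPKM, and 2 of the 7 were highest there, beside 14.3% of all genes tested. The sum was 391 to 882 FPKM in SLS and 170 to 323 FPKM in LLS. Every SLS ovary was thus above every LLS ovary, in the direction of the 9 genes, as for 3.17% of all genes tested. In ZD2 the sum was 576 FPKM, with HSD17B1, AMH and FOXL2 at 6.70, 0.208 and 13.8 FPKM. The sum was therefore carried there by other genes of the list, whose values are not given here. HSD17B1 was at 109 FPKM in ZD12 (4.18 to 40.2 in the others), whereas FOXL2 (30.6 in ZD12, 37.8 in ZD8) and AMH (7.21 in ZD12, 12.01 in ZD8) were highest in ZD8. Unlike the sum, HSD17B1 (6.70 and 4.18 FPKM) and AMH (0.208 and 0.346 FPKM) in ZD2 and ZD3 were under every LLS ovary. LLS values were 19.1 to 40.2 FPKM for HSD17B1 and 1.69 to 12.01 FPKM for AMH. FOXL2 in ZD2 and ZD3 (13.8 and 7.25 FPKM) lay between the LLS values of ZD7 (6.69 FPKM) and ZD8. The sum of 4 theca genes was 116 FPKM in ZD12, 477 FPKM in ZD8 and 30.5 to 40.1 FPKM in the other 4 ovaries. The sum of 9 oocyte genes was 22.9 FPKM in ZD12, 127 FPKM in ZD8 and 6.52 to 12.1 FPKM in the other 4. Their part in the result was not tested. The sum of 11 macrophage and monocyte genes was 144 FPKM in ZD12, and its range was 81.8 to 160 FPKM in SLS and 109 to 144 FPKM in LLS. The sum of 10 T cell genes was 6.44 FPKM in ZD12, 5.57 to 7.77 FPKM in SLS and 5.92 to 18.04 FPKM in LLS, with the highest in ZD8. The sum of 5 genes of plasmacytoid dendritic cells, known as strong makers of type I interferon, was 44.2 FPKM in ZD12 and 91.1 FPKM in ZD8 against 33.3 to 37.1 FPKM in the other 4. Only 3 of the 5 passed the filter. IRF8, 1 of the 5, was at 1.44 to 4.63 FPKM, so other genes of the list carried this sum. Whether the sum follows these cells was not tested. The sum of 7 neutrophil genes was 2.83 FPKM in ZD12, 1.69 to 2.83 FPKM in SLS and 1.16 to 5.18 FPKM in LLS, with MPO and ELANE listed at 0 in all 6 ovaries.

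The likeness among the genes was far larger with ZD12 than without it. Over the 6 ovaries, the 28 pairs among the 8 genes other than OAS1 had a median Pearson r of 0.62, and 27 were above 0. Over the 5 ovaries without ZD12 the median was -0.17, and 13 of the 28 were above 0. The closest pair was MX1 and OAS2, with r = 0.93 over 6 ovaries and 0.77 without ZD12, and MX1 with IRF7 had 0.91 and 0.84. The 8 pairs of OAS1 with the others had a median r of 0.17 over 6 ovaries and of 0.04 without ZD12. These values describe 6 libraries that differ in depth and in the levels of cell type markers.

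The pattern of the 9 genes was averaged as centred log2(FPKM + 1), and stood at 0.68 in ZD12, 0.10 in ZD2, -0.07 in ZD3, and -0.22, -0.26 and -0.22 in ZD5, ZD7 and ZD8. The 10 genes most like it over the 6 ovaries were SPSB2 and LOC110261674 (both r = 0.98), PSMD10, KIAA1644, LOC100158117, TXNL4A, NTNG2, NTPCR, LCN2 and RSAD2 (r = 0.95). RSAD2, which encodes viperin, was the 1 gene of these from the lists of the interferon pathway. It was at 1.95, 1.09 and 3.51 FPKM in ZD2, ZD3 and ZD12 and at 1.07, 0.7003 and 0.494 FPKM in ZD5, ZD7 and ZD8, with the groups just apart. LCN2, an iron-carrier binding protein of innate defence, was at 46.1, 34.3 and 86.1 FPKM in SLS and at 19.2, 15.6 and 16.3 FPKM in LLS. Both were picked for their likeness to an average that itself stands higher in every SLS ovary than in every LLS ovary, so the separation of their groups follows from the choice and is no result.

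**Figure D3:**
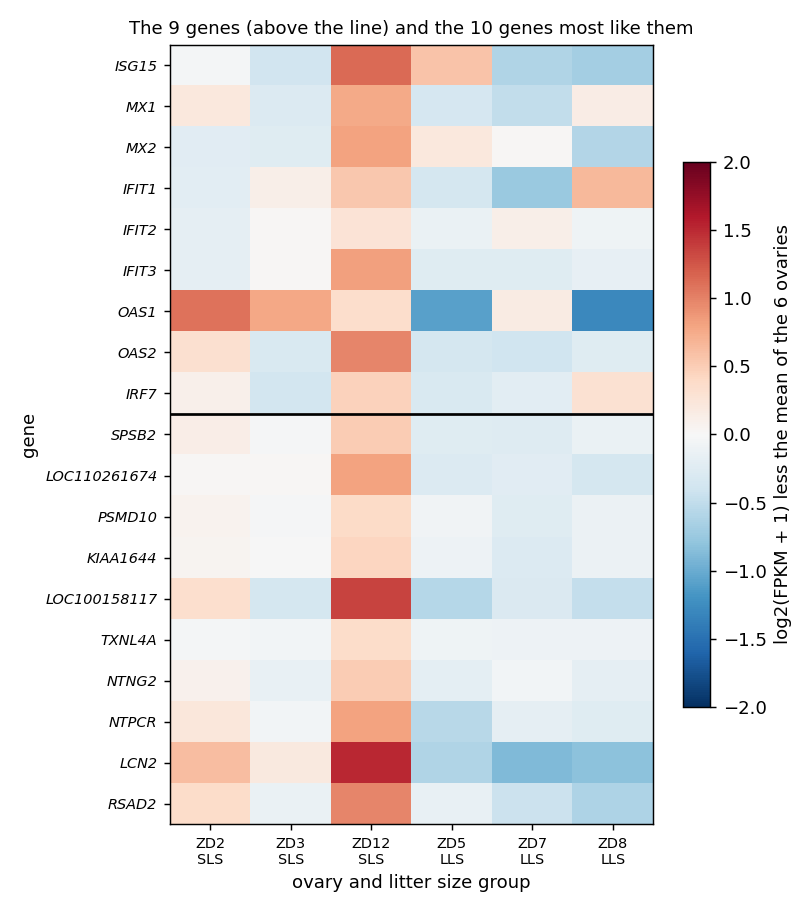
Colour shows log2(FPKM + 1) less the mean of the 6 ovaries, for the 9 genes and, under the line, the 10 genes most like their average. Columns are ovaries. The ZD12 column is red for all of them, and OAS1 differs in being highest in ZD2 and lowest in ZD5 and ZD8.

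The rest of the pathway was read from lists of ligands, receptors, sensors, kinases and further targets, of which 93 genes were in the table and 78 passed the filter. By limma 0 of these were called, and an unadjusted p under 0.05 was reached by 1, PLAC8, beside 1.76% of all genes tested. The groups did not overlap for 3 genes lower in LLS (3.85%, beside 3.17% of all genes tested) and for 1 gene higher in LLS (1.28%, beside 1.95%), shares near those of all genes. The median log2 fold change of the 78 was -0.01, and 41 were below 0, beside 47.4% of all genes tested. Without ZD8, 0 were called as well.

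Among the ligands, 32 of the 33 type I interferon genes in the table were listed at 0 in all 6 ovaries. The exception was IFNE, an interferon known for its constant expression in the female reproductive tract, at 0.305 to 1.85 FPKM with overlapping groups. The sources used here do not state how reads that match several genes were counted, so a listed 0 does not show absence. IFNG, the type II interferon, was at 0.458 FPKM in ZD2 and 0.160 FPKM in ZD7 and was listed at 0 in the others, ZD12 included. The receptor chain IFNAR1 was at 39.5 to 56.3 FPKM. IFNAR2 was at 13.9, 16.1 and 11.80 FPKM in ZD2, ZD3 and ZD12 and at 11.77, 11.2 and 5.46 FPKM in ZD5, ZD7 and ZD8. Its groups touched without overlap, and the lowest ovary was ZD8 (log2 fold change -0.57, SE 0.33, adjusted p = 0.999 by limma).

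Levels of the signalling genes varied widely. IRF8 was at 1.44 to 4.63 FPKM and IRF5 at 0.825 to 2.15 FPKM. JAK1 was at 44.4 to 79.4 FPKM, STAT2 at 17.8 to 22.7 FPKM and IRF9 at 8.95 to 18.3 FPKM. The log2 fold change was -0.01 for JAK1 and 0.22 for IRF9. Of the 10 kinases, STATs and IRFs that passed the filter, 0 were highest in ZD12, beside 14.3% of all genes tested. IRF3, the factor that starts interferon production, was at 24.5 to 43.2 FPKM. Of the sensors, TLR7, which reads single-stranded RNA, was at 1.07 to 1.414 FPKM in SLS and 1.418 to 1.86 FPKM in LLS, the 1 pathway gene past the filter with all LLS values above all SLS values. Its log2 fold change was 0.24 (SE 0.26, adjusted p = 0.999 by limma). The adaptors MYD88 (15.0 to 23.6 FPKM) and MAVS (8.00 to 13.9 FPKM) had overlapping groups.

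Among 33 further interferon-stimulated genes that passed the filter, 16 were below 0 (beside 47.4% of all genes tested), and the median log2 fold change was 0.01. Of the 33, 13 were highest in ZD12 and 14 in ZD8, beside 14.3% and 44.6% of all genes tested. PLAC8 was at 3.92, 3.71 and 5.18 FPKM in ZD2, ZD3 and ZD12 and at 2.48, 2.32 and 1.98 FPKM in ZD5, ZD7 and ZD8, so that its groups stood apart (log2 fold change -0.68, SE 0.27, unadjusted p = 0.0326, adjusted p = 0.999 by limma). The membrane protein IFITM3 was at 16.5 to 72.6 FPKM (-0.79) and LGALS3BP at 27.2 to 61.8 FPKM (-0.34), both highest in ZD12. SHISA5 was at 23.8 to 71.9 FPKM (-0.46) and highest in ZD2. The genes tied more closely to interferon gamma, such as TAP1 (8.70 to 14.6 FPKM), PSMB8 (7.03 to 15.1 FPKM) and WARS (13.6 to 29.4 FPKM), had overlapping groups. Of the 11 that passed, 2 were highest in ZD12, beside 14.3% of all genes tested. SOCS3, a brake on the kinases, was at 51.3 to 118 FPKM in 5 ovaries and at 6.32 FPKM in ZD8.

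**Figure D4:**
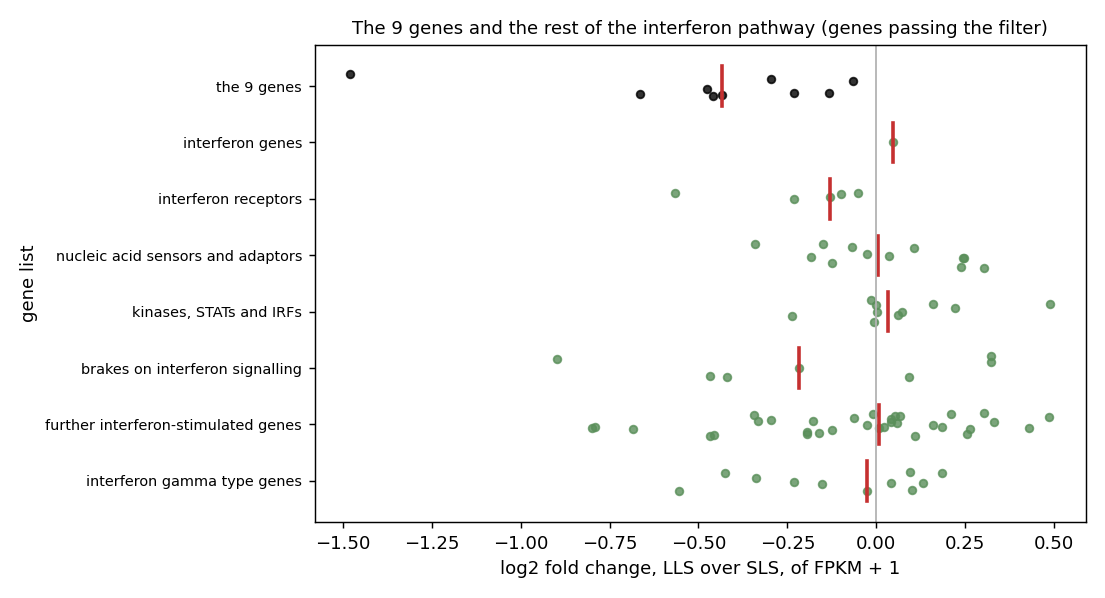
Log2 fold change of LLS over SLS on the FPKM + 1 scale (horizontal axis) for the 9 genes and for 7 lists of the interferon pathway (vertical axis). Each point is a gene and each red bar a median. The median of the 9 genes is -0.43, and that of the 33 further interferon-stimulated genes is 0.01.

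The ISRE core, held by 3.58% of all promoters, was found in 15 of 37 promoters of the further interferon-stimulated genes (40.5%) and in 8 of 14 of the interferon gamma type genes (57.1%). It was in 4 of 14 promoters of sensors and adaptors (28.6%), 1 of 7 of the brakes and 1 of 5 of the interferon genes. It was in 0 of 6 receptor promoters and in 0 of 11 promoters of kinases, STATs and IRFs, lists too short to differ visibly from the share of all promoters.

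The small RNA libraries of the same ovaries gave another readout of innate signalling. The mature sequences of miR-155-5p and miR-146a-5p, both known to be raised by inflammatory signals, are shown with the seed (bases 2 to 8) in capitals, as in the deposited table:
miR-155-5p: tTAATGCTaattgtgatagggg
miR-146a-5p: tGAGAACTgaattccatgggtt
In RPM (reads scaled to the library total), miR-155-5p was at 438 to 829 in SLS and 544 to 754 in LLS. The level of miR-146a-5p was 11.9 to 25.9 RPM in SLS and 11.5 to 26.4 RPM in LLS. The groups overlapped for both, and no test was made.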

How the data were processed

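The authors removed ribosomal RNA, trimmed the reads, mapped them to Sscrofa11.1 with HISAT2 and deposited gene levels as FPKM. The small RNA table deposited by the authors holds RPM (reads scaled to the library total). The program that counted reads is not given in the sources used here. Each ovary is from a separate sow, so p-values measure the spread between sows. The deposited FPKM were turned back into whole reads with the longest RefSeq transcript for 23477 of 23564 genes above 0 (99.6%, tolerance 0.001 read). Depth was 32272803 to 60903268 reads per gene library and 3537619 to 9854086 per small RNA library.

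With R 4.3.3, limma 3.58.1 with a trended variance was run on log2(FPKM + 1) for genes with at least 1 FPKM in at least 3 libraries, and p-values were adjusted over all 12260. Calls needed an adjusted p below 0.05 and a log2 fold change beyond 1 in either direction. The fold changes on this scale understate those of low genes. Alternatives were pseudocounts of 0.1 and 0.01, no filter, TPM scaling, median centring, array weights, no variance trend, edgeR 4.0.16 and DESeq2 1.42.0 on recovered reads, and leaving out each ovary. The script was tested on simulated data. The 9 genes and the lists were chosen with earlier results of these data known. The rule for named genes took the 9 genes, the pathway genes called or with groups apart, and the 3 highest of each list. It also took the 10 genes most like the average of the 9. Some genes that the rule took are not named in the text. Genes named beyond the rule (USP18, LIPA, the IFIT5 gene, single markers, STAT2, IRF5, IRF8 and IRF9) were chosen after their values were seen. Markers were read as list sums. Floors cover counting error only. A few items are not reported here.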

Additional observations from a re-analysis of the deposited data

How the results depend on the processing

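Of the 9 genes, 0 were called under each of the 15 alternatives run, with adjusted p-values of at least 0.233 (OAS2 with array weights). The number of all genes called was 13 with array weights (6 higher and 7 lower in LLS), 20 with DESeq2 on recovered reads (11 higher and 9 lower) and 0 to 20 with each ovary left out, where the 20 came without ZD8 (14 higher and 6 lower). It was 0 under the other alternatives. The direction of a member kept its sign in 131 of 135 values. The 4 exceptions were MX2, IFIT2 and IRF7 without ZD12 and MX2 without ZD8 (0.0035). With an ovary left out, the log2 fold change ran from -0.41 to 0.11 for MX2, from -0.17 to 0.053 for IFIT2 and from -0.35 to 0.065 for IRF7, the highest value being the one without ZD12. The cause was not tested. The log2 fold change of OAS1 ran from -4.44 with a pseudocount of 0.01 to -1.16 with array weights, and from -1.93 to -1.20 with an ovary left out. The median of the 9 genes was -0.10 without ZD12. With array weights the median of all genes moved to -0.12. No paired analysis was possible because the labels number no replicates and every ovary came from a different sow.

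With 3 ovaries a group, the 95% intervals of 8 of the 9 genes include 0. ISG15 in ZD8 rests on 41 reads and OAS1 in ZD5 on 14. In LLS, 1 of 3 ovaries had luteal gene levels far under those of the rest.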
